A study of Mus musculus with 8 samples.

Results

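Crypt cells of the intestinal epithelium are tied to their neighbours by adherens junctions and desmosomes, and the transcripts of 10 genes of these junctions were compared between crypts of the small intestine (SI) and the colon (COL). The 10 genes were Cdh1, Cdh17, Epcam, Ctnnb1, Ctnna1, Ctnnd1, Jup, Dsg2, Dsc2 and Dsp. They were chosen by symbol as E-cadherin and its partners, and were matched through their Ensembl identifiers to the 45706 genes counted in both tissues. All 10 passed the filter on low counts, among 14491 genes that did. RNA-Seq had been performed on crypts freshly isolated by EDTA chelation from wild-type C57BL/6N mice, with no treatment named. Each of 4 donor mice gave 1 SI and 1 COL library, so that 4 libraries stood on either side. Mice 1 and 4 were female and mice 2 and 3 male, where mouse 4 is number 5 in the labels. The age of the mice is not given in the sources used here.

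In an adherens junction, E-cadherin (Cdh1) spans the membrane and binds the E-cadherin of the next cell. Its cytoplasmic tail binds p120-catenin (Ctnnd1), which holds it at the membrane, and β-catenin (Ctnnb1), which is also the effector of the Wnt signal that sustains intestinal stem cells. α-Catenin (Ctnna1) links β-catenin to actin. In a desmosome, the desmosomal cadherins desmoglein 2 (Dsg2) and desmocollin 2 (Dsc2) take the place of E-cadherin. Plakoglobin (Jup) and the plakophilins bind their tails, and desmoplakin (Dsp) ties the plaque to keratin filaments. LI-cadherin (Cdh17) is a cadherin of the intestinal epithelium with a short tail that binds no catenin, and EpCAM (Epcam) is an epithelial adhesion protein that stabilizes claudin-7.

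Total counts per library ranged from 15969428 to 32908060, and the 10 genes together took 0.325% to 0.467% of the counts in SI and 0.263% to 0.417% in COL. The share of counts on mitochondrial genes was low (4.83% to 7.35%) for SI1, SI4, COL3 and COL4. It was high (22.7% to 50.8%) for the other 4 libraries, SI2, SI3, COL1 and COL2. Within SI, the low-share libraries were those of the female mice, so that sex and mitochondrial share cannot be told apart there. Levels are given as CPM, counts scaled to a common library size of 1e+06 by the TMM-adjusted total, where TMM is edgeR's scaling between libraries. It gave factors of 0.73 to 0.80 in SI and 1.01 to 1.45 in COL. Tests are edgeR's quasi-likelihood test of SI against COL with Benjamini-Hochberg adjustment over the 14491 genes and a threshold of 0.05, and a log2 fold change above 0 means a higher level in SI. Of all genes tested, 28.4% passed it, 15.5% higher in SI and 12.9% higher in COL. With library size alone as the scaling, the split moved from 2253 higher in SI and 1863 higher in COL to 1115 and 4788, and over all genes the median moved from -0.09 to -0.82 on the log2 scale.

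The labelled tissue was checked against marker transcripts. Summed CPM of 5 genes of the intestinal epithelium (Vil1, Krt8, Krt18, Krt19 and Krt20) was 11568 to 21742 in SI and 3772 to 13151 in COL. These genes went both ways. Vil1 and Krt20 were called higher in SI (log2 fold change 3.25 and 3.06) and Krt18 higher in COL (-1.40). Krt8 and Krt19 were not called (0.19 and -1.58). Of 6 genes of squamous epithelium, which is rich in desmosomes, the sum was 3.09 to 7.19 CPM in SI and 3.39 to 6.10 CPM in COL, and Krt5 had no count in any library. Of 6 leukocyte genes the sum was 37.8 to 85.5 CPM in SI and 10.9 to 32.6 CPM in COL, with Cd3e, Cd8a and Itgam higher in SI. Sums for fibroblasts, smooth muscle, endothelium and enteric neurons and glia stayed between 0.137 and 8.70 CPM in all libraries. Of their genes only Pecam1, of endothelium, was called, with 2 to 19 counts in SI and 42 to 106 in COL libraries (log2 fold change -2.69). Absorptive genes of the small intestine (Alpi, Apoa4, Fabp2, Sis and Anpep) summed to 28035 to 60308 CPM in SI and 207 to 875 CPM in COL, so the SI crypts held transcripts of differentiated absorptive cells. The isolation protocol, which is described for organoid cultures, removes SI villi by scraping. For 5 absorptive genes of the colon the sums were 548 to 1415 CPM in SI and 1731 to 5176 CPM in COL, with Car4, Aqp8 and Guca2a higher in COL, Slc26a3 not called and Ceacam20 higher in SI (log2 fold change 2.26). They were for 4 Paneth cell genes 254 to 2851 CPM in SI and 13.4 to 72.8 CPM in COL. Of these, Lyz1, Defa24 and Mmp7 were called higher in SI, and Ang4 was not called (log2 fold change -0.22). For 6 proliferation genes the sums overlapped, at 92.5 to 439 CPM in SI and 305 to 554 CPM in COL. The sums for goblet cells were 2064 to 7160 CPM in SI and 10682 to 18740 CPM in COL. This difference was carried mostly by Muc2, the one called gene of 4 (log2 fold change -4.10). Clca1 leaned to COL (-0.79), and Tff3 and Fcgbp leaned to SI (0.86 and 0.66). The part of these cell types in the differences given next was not tested. In bulk RNA, fewer cells of a type and less RNA per cell cannot be told apart.

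Of the 10 junction genes, 3 passed the threshold, all higher in SI: Cdh17, Ctnna1 and Ctnnd1. No member was called higher in COL by edgeR, DESeq2 or limma-voom. At an unadjusted p below 0.05, edgeR put 5 members past the threshold, all higher in SI, with Ctnnb1 and Dsc2 added; 39.8% of all genes did so, 20.6% with SI higher. The 3 in 10 called after adjustment lie near the 28.4% of all genes tested. The log2 fold change was positive for 9 members and -0.01 for Cdh1, with a median of 0.61 against -0.09 over all genes. For 4 members (Cdh17, Ctnnb1, Ctnna1 and Ctnnd1) the SI values lay wholly above the COL values, where 17.8% of all genes did so. For 6 members SI exceeded COL in all 4 mice, against 25.0% of all genes. With library size alone as the scaling, the median of the members was -0.14 and 1 member, Cdh17, passed, beside 40.7% of all genes (7.69% higher in SI). All 10 lay above the median of all genes under both scalings. The change of scaling shifts all genes nearly alike, so it is no further check of that place. Only 9 of the 10 did so with at least 10 counts in every library, with the mitochondrial share as a covariate, and without SI4, COL1 or COL2.

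**Figure D1:**
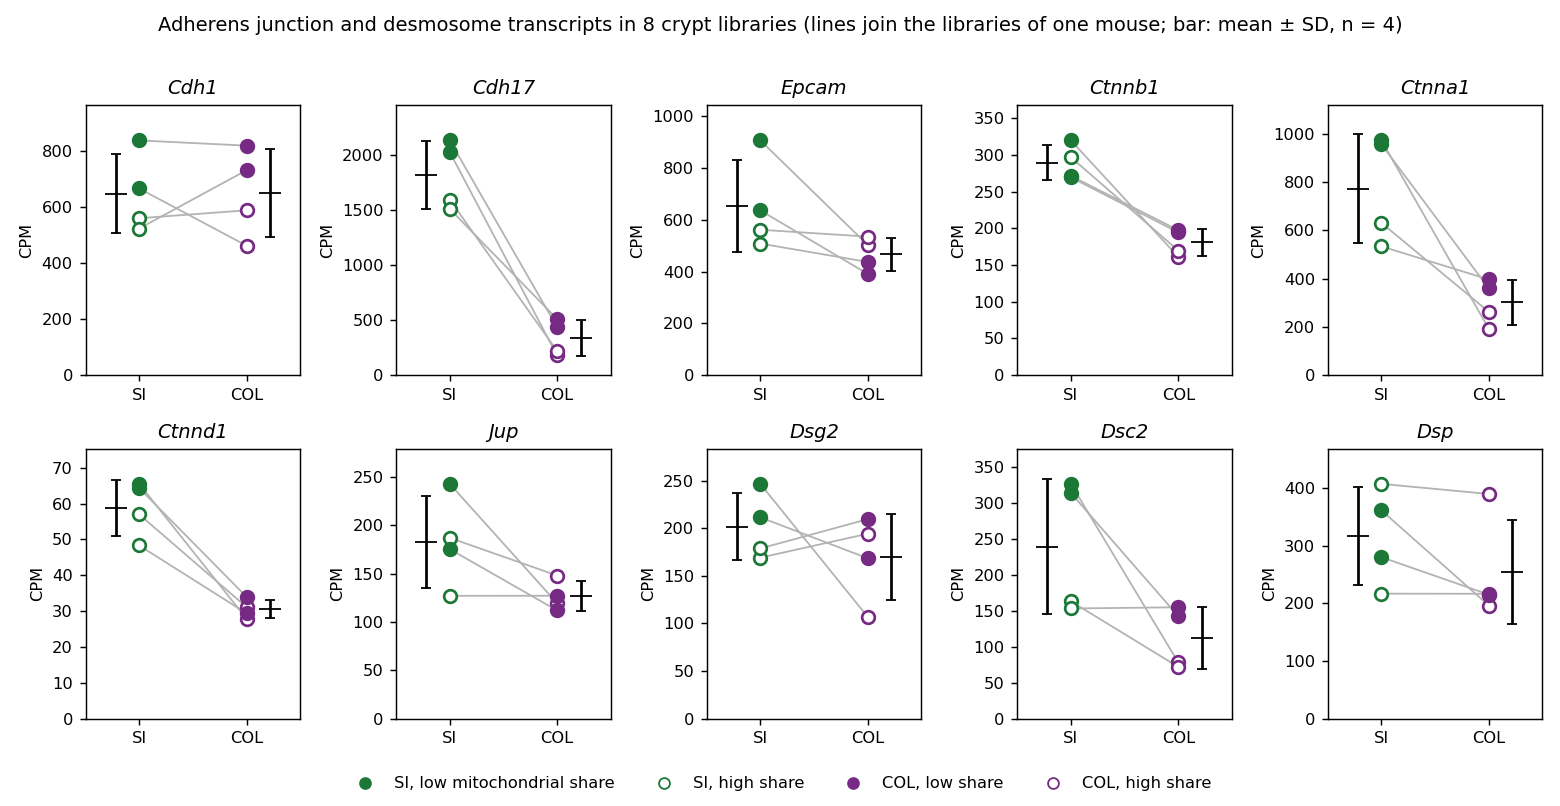
CPM (linear axis from 0) of each junction gene in the 4 SI and 4 COL libraries; points are libraries, lines join the libraries of one mouse, filled points have a low and open points a high mitochondrial share, and bars give mean ± SD (n = 4). Cdh17, Ctnnb1, Ctnna1 and Ctnnd1 did not overlap between the tissues, while the Cdh1 points covered the same range in both.

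With TMM scaling, E-cadherin itself was the member with the smallest difference over the 8 libraries, which was not so by library size alone, where Ctnnb1 was (-0.08), or without COL1, where Dsg2 was (0.09). From these same data, the study had already singled out E-cadherin as negligibly different between the tissues, for use as a protein loading control. Its small difference, and its spread over the 8 libraries given below, are thus no independent result. Cdh1 (Ensembl ENSMUSG00000000303, GRCm38 chr8:106603351-106670246, plus strand) stood at 668, 561, 524 and 839 CPM in SI1 to SI4 and at 463, 589, 733 and 821 CPM in COL1 to COL4. The ranges overlapped almost fully, and SI was higher in 2 of 4 mice. The 95% confidence interval of the log2 fold change ran from -0.77 to 0.76, so differences within that range in either direction are not excluded. Within each tissue both low-share libraries lay above both high-share libraries. Between the tissues the mean log2 CPM differed by -0.05 among low-share and by 0.05 among high-share libraries. By library size alone the log2 fold change of Cdh1 was -0.76 (edgeR, adjusted p = 0.141), which is close to the median gene under that scaling.

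Over the 8 libraries, the SD of log2 CPM of Cdh1 was 0.31. Of the 230 genes within 1 log2 unit of its mean level, 2.61% had a smaller SD. The same percentile was 3.70% for Epcam, 7.60% for Ctnnb1, 8.28% for Dsg2, 10.4% for Dsp and 11.8% for Jup, so these 6 members were among the steadier genes of their level. It was 42.2% for Ctnnd1, 48.6% for Ctnna1, 59.6% for Dsc2 and 75.4% for Cdh17. Within the tissues, Ctnnb1 had the smallest spread of the members, with an SD of 0.13 on the log2 scale. Only 0.249% of the 803 genes of like level varied less. The SD over the 8 libraries includes the difference between the tissues, and the order changed without it. Within the tissues the percentile was 3.00% for Ctnnd1, 4.38% for Epcam, 6.09% for Cdh1, 13.3% for Jup and 18.2% for Dsg2. For Ctnna1 it was 21.2%, for Dsp 22.9%, for Cdh17 33.3% and for Dsc2 62.4%.

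Cdh17, the non-classical cadherin of the gut, was by contrast the member that differed most. Cdh17 (ENSMUSG00000028217, chr4:11758147-11817895, plus strand) stood at 2030.4, 1597, 1513 and 2136 CPM in SI1 to SI4 and at 179, 220.3, 511 and 437 CPM in COL1 to COL4. Every SI library lay far above every COL library. The log2 fold change was 2.43 ± 0.46 (SE), a 5.40-fold difference with a 95% interval from 2.68 to 10.9 (edgeR, adjusted p = 0.00225). In COL the 2 low-share libraries lay above the 2 high-share libraries, and the log2 difference between the tissues was 2.14 within the low and 2.97 within the high share. It passed the threshold in every alternative fit, with the lowest log2 fold change, 1.66, under scaling by library size alone.

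EpCAM transcripts were spread differently. Epcam (ENSMUSG00000045394, chr17:87635979-87651129, plus strand) stood at 906, 561, 508 and 636 CPM in SI1 to SI4 and at 503, 535, 437 and 391 CPM in COL1 to COL4. SI was higher in each mouse, yet SI3 lay below COL2. The log2 fold change was 0.49 ± 0.34 (95% interval -0.25 to 1.22; edgeR, adjusted p = 0.312) and was -0.26 by library size alone. Among low-share libraries the tissues differed by 0.88 on the log2 scale, and among high-share libraries by 0.04.

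Of the 4 catenins, Ctnna1 and Ctnnd1 were higher in SI, while Ctnnb1 and Jup did not pass the threshold. Ctnna1 (ENSMUSG00000037815, chr18:35118859-35254779, plus strand) stood at 972, 630.1, 533 and 956 CPM in SI1 to SI4 and at 192, 262, 396 and 359 CPM in COL1 to COL4. The tissues did not overlap, and the low-share libraries were the higher pair within each of them. SI exceeded COL by 1.35 ± 0.38 on the log2 scale, or 2.56-fold (edgeR, adjusted p = 0.0202), and the difference was 1.35 within the low and 1.37 within the high share. This call was lost when donor mouse was blocked (log2 fold change 1.36, adjusted p = 0.0501) and without SI1, SI4 or COL1 (adjusted p = 0.0560, 0.0664 and 0.0585), and library size alone gave 0.60 (adjusted p = 0.249). Ctnna1 was also not called with no filter or from the high-share libraries alone (edgeR, adjusted p = 0.0619 and 0.0818).

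Ctnnd1 (ENSMUSG00000034101, chr2:84600071-84650765, minus strand) had the lowest level of the members, at 65.5, 57.0, 48.3 and 64.3 CPM in SI1 to SI4 and 27.9, 31.1, 29.4 and 34.0 CPM in COL1 to COL4. The lowest SI value lay above the highest COL value. On the log2 scale SI was higher by 0.94 ± 0.22 (edgeR, adjusted p = 0.00856, or 0.0224 when donor mouse was blocked) and 0.19 by library size alone (adjusted p = 0.555). Ctnnd1 was also not called with no filter or from the high-share libraries alone (edgeR, adjusted p = 0.0876 and 0.198). Its counts may be incomplete, since 4482 of its 7319 exon bases also belong to the annotated gene Gm28635 on the same strand, to which no read was counted in any library. How reads in the shared bases were treated is not given in the sources used here, and 2837 bases were its own.

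Ctnnb1 (ENSMUSG00000006932, chr9:120929216-120960507, plus strand) stood at 319.8, 297, 271 and 269.5 CPM in SI1 to SI4 and at 161, 169.7, 197 and 194 CPM in COL1 to COL4. All SI values lay above all COL values and both groups were narrow, with coefficients of variation of 8.21% and 9.97%. Even so the log2 fold change of 0.68 ± 0.27 missed the threshold (edgeR, adjusted p = 0.0787), and it was -0.08 by library size alone. DESeq2 gave 0.65 with an adjusted p of 0.0102. The exons of Ctnnb1 overlap those of Ulk4 on the opposite strand over 759 bases, where without strand the 2 genes cannot be told apart; Ulk4 had 1 to 36 counts per library.

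Plakoglobin, the catenin that serves both junctions, stood at 243, 187, 127 and 175 CPM in SI1 to SI4 and at 119, 148, 127 and 112 CPM in COL1 to COL4 (Jup, ENSMUSG00000001552, chr11:100368958-100397763, minus strand). SI3 lay within the COL range and SI1 stood highest. The difference of 0.53 ± 0.29 on the log2 scale did not pass (edgeR, adjusted p = 0.192), and -0.21 by library size alone.

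**Figure D2:**
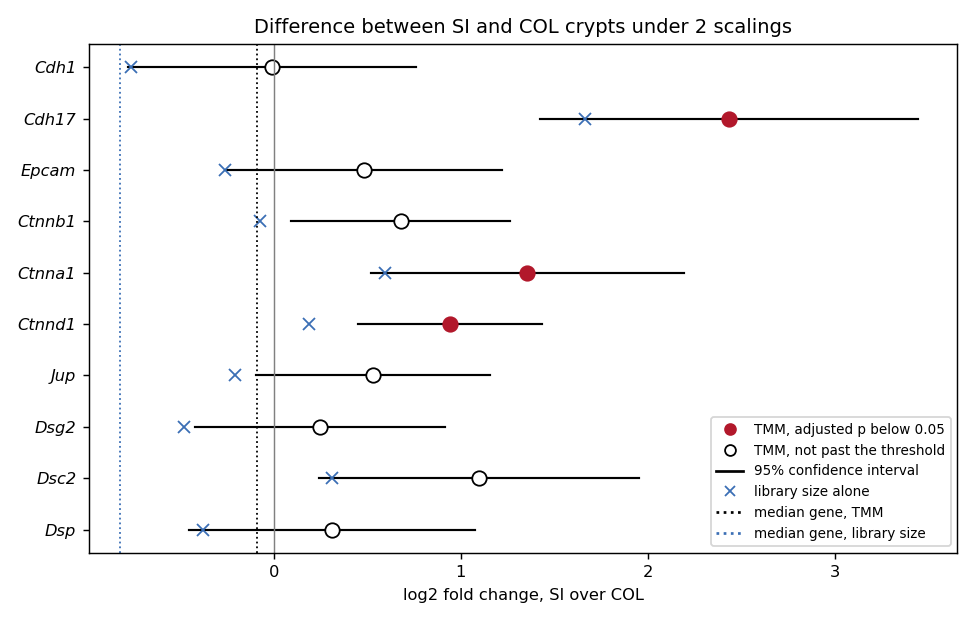
Log2 fold change of SI over COL for each junction gene with TMM scaling (circles, filled where the adjusted p is below 0.05, with 95% confidence intervals) and with library size alone (crosses); dotted lines mark the median gene under each scaling. Under library size alone the values of Epcam, Ctnnb1, Jup, Dsg2 and Dsp turn from positive to negative. All 10 genes lie right of the median gene under both scalings, where the change of scaling shifts all genes nearly alike.

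Of the desmosomal cadherins and desmoplakin, none passed the threshold with edgeR, and Dsc2 alone did at an unadjusted p (0.0165). Dsc2 (ENSMUSG00000024331, chr18:20030633-20059554, minus strand) came closest, with 327, 164, 153 and 314 CPM in SI1 to SI4 and 78.4, 72.1, 155 and 143 CPM in COL1 to COL4. The low-share libraries exceeded the high-share ones by 1.02 on the log2 scale in SI and by 0.98 in COL, and SI3 lay just below COL3. The log2 fold change was 1.10 ± 0.39 (edgeR, adjusted p = 0.0557), 0.31 by library size alone, and 1.11 and 1.07 within the low and the high mitochondrial share. Limma-voom and DESeq2 put it past the threshold (adjusted p = 0.0394 and 0.0250).

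Its partner Dsg2 (ENSMUSG00000044393, chr18:20558074-20604521, plus strand) stood at 247, 169, 179 and 211 CPM in SI1 to SI4 and at 107, 194, 209 and 168 CPM in COL1 to COL4. SI was higher in mice 1 and 4 and lower in mice 2 and 3, and the log2 fold change was 0.25 ± 0.30 (95% interval -0.42 to 0.91; edgeR, adjusted p = 0.587) and -0.48 by library size alone. Dsp (ENSMUSG00000054889, chr13:38151294-38198577, plus strand) stood at 362, 408, 217 and 280.4 CPM in SI1 to SI4 and at 196, 390.2, 217 and 215 CPM in COL1 to COL4. Mouse 2 gave the highest value of either tissue, and COL2 stood far above the other COL libraries. Its log2 fold change was 0.31 ± 0.35 (95% interval -0.45 to 1.08; edgeR, adjusted p = 0.541), -0.38 by library size alone and 0.60 without COL2, in no case past the threshold.

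The mitochondrial share moved with several members within a tissue. In SI, both low-share libraries lay above both high-share libraries for 7 of the 10 members (Cdh1, Cdh17, Epcam, Ctnna1, Ctnnd1, Dsg2 and Dsc2), against 25.4% of all genes. In COL this was so for 5 members (Cdh1, Cdh17, Ctnnb1, Ctnna1 and Dsc2), against 34.6% of all genes. The fit of the low-share libraries alone called 6 members higher in SI, which were Cdh17, Ctnna1, Ctnnd1, Dsc2, Epcam and Jup, beside 37.0% of all genes called (18.7% higher in SI). That of the high-share libraries alone called Cdh17, beside 14.8% of all genes (9.01% higher in SI). Some marker sums parted by share too. Absorptive genes of the small intestine summed to 60308 and 57113 CPM in SI1 and SI4. In SI2 and SI3 they summed to 28035 and 31648 CPM. Proliferation genes stood at 92.5 and 257 against 439 and 372 CPM there, and did not part by share in COL. Genes of the intestinal epithelium summed to 13151 and 11851 CPM in COL3 and COL4. In COL1 and COL2 the sums were 4265 and 3772 CPM. Whether the share, the cell makeup or the mice set the values of the members was not tested.

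To set members beside each other, CPM were divided by the exon length that a gene shares with no other annotated gene. In SI the order of the mean levels was Cdh17 (407 ± 69.3 CPM per kilobase, SD, n = 4), Epcam (297 ± 80.6), Cdh1 (142 ± 30.9), Ctnna1 (122 ± 35.4), Ctnnb1 (65.6 ± 5.4), Dsc2 (45.4 ± 17.8), Dsp (34.6 ± 9.3), Jup (28.4 ± 7.4), Dsg2 (25.4 ± 4.4) and Ctnnd1 (20.7 ± 2.8). Neighbours in this order overlapped in their library values except Epcam above Cdh1 and Ctnna1 above Ctnnb1. In COL the order of the mean levels began with Epcam (212 ± 29.5 CPM per kilobase), Cdh1 (142 ± 34.5) and Cdh17 (75.3 ± 36.3) and ended with Ctnnd1 (10.8 ± 0.9). There all neighbours overlapped except Jup above Ctnnd1. LI-cadherin was thus the first of the 10 in all 4 SI libraries, and below both Epcam and Cdh1 in all 4 COL libraries. The 4 desmosomal genes Dsc2, Dsp, Jup and Dsg2 lay below E-cadherin and α- and β-catenin in the mean of either tissue.

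**Figure D3:**
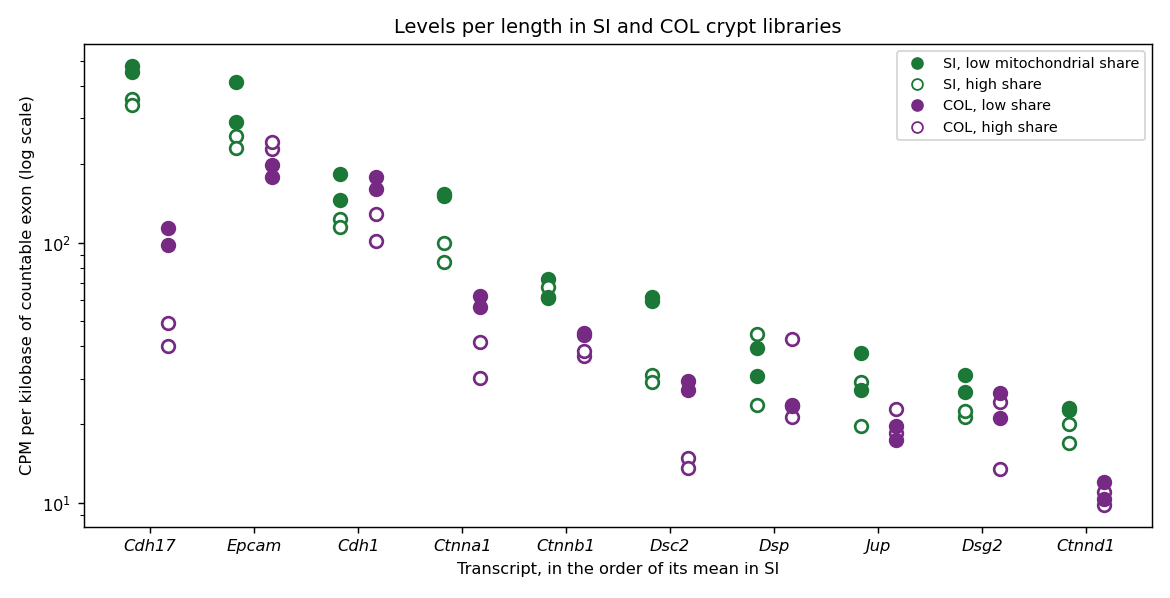
CPM per kilobase of exon not shared with another gene (log axis) for each junction gene in the 4 SI (green) and 4 COL (purple) libraries, ordered by the SI mean; filled points have a low and open points a high mitochondrial share. Cdh17 leads in SI, and Epcam and Cdh1 lead in COL, while Ctnnd1 is last in both.

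Ratios between members within a library do not depend on the scaling between libraries, and 6 of them were compared by a two-sided exact permutation test over the 70 assignments of the libraries, which leaves the pairing by mouse unused and cannot give a p below 0.0286. Per length, Cdh17 stood to Cdh1 at 3.11, 2.91, 2.95 and 2.60 in SI1 to SI4 and at 0.395, 0.382, 0.713 and 0.544 in COL1 to COL4. The ratio was thus above 1 in every SI and below 1 in every COL library. The mean log2 ratio differed by 2.55, or 5.87-fold (exact permutation p = 0.0286, 0.0857 after Benjamini-Hochberg adjustment over the 6 ratios). Dsc2 stood to Dsg2 at 2.00, 1.45, 1.29 and 2.24 in SI1 to SI4 and at 1.10, 0.559, 1.11 and 1.28 in COL1 to COL4. The SI values lay above the COL values by a narrow gap, and the mean log2 ratio differed by 0.82 (exact permutation p = 0.0286, adjusted 0.0857).

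β-Catenin over E-cadherin was 0.497, 0.549, 0.537 and 0.333 in SI1 to SI4 and 0.361, 0.299, 0.280 and 0.246 in COL1 to COL4. It was higher in SI in each mouse, by 0.68 on the log2 scale on average, and SI4 lay within the COL range (exact permutation p = 0.0571, adjusted 0.0857). α-Catenin over β-catenin also differed by 0.68, with 1.37 to 2.47 in SI and 0.83 to 1.40 in COL (exact permutation p = 0.0571, adjusted 0.0857). This ratio was higher in SI in 3 mice and slightly lower in mouse 3 (1.37 against 1.40). The log2 ratios of Jup to Ctnnb1 and of Dsp to Cdh1 differed by -0.18 and 0.33 (exact permutation p = 0.429 and 0.400, both 0.429 after adjustment). No ratio passed 0.05 after adjustment over the 6, which with 4 libraries against 4 at least 4 of them would have had to do together at the smallest p.

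**Figure D4:**
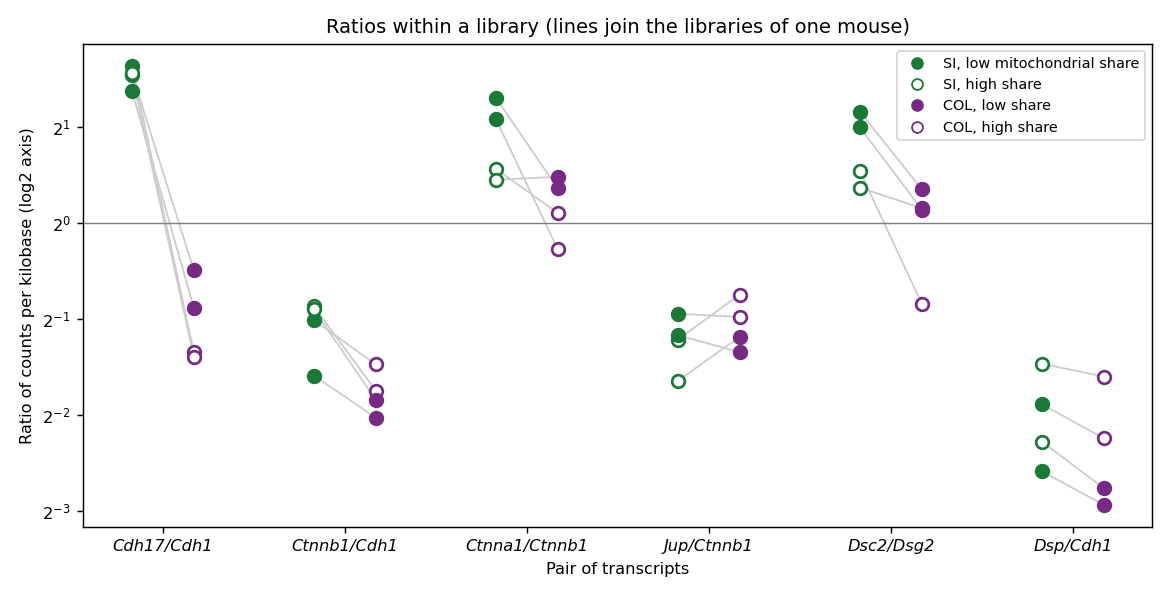
Ratio of counts per kilobase between pairs of junction genes within each library (log2 axis), in 4 SI (green) and 4 COL (purple) libraries; lines join the libraries of one mouse and filled points have a low mitochondrial share. The ratio of Cdh17 to Cdh1 lies above 1 in every SI and below 1 in every COL library, and that of Dsc2 to Dsg2 does not overlap between the tissues.

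Genes with a profile most like that of Cdh1 were sought by the root mean square difference of centred log2 CPM over the 8 libraries, among 3646 genes with a mean log2 CPM of at least 5. The nearest 5 were Bag3 (0.09 log2 units), Cog6 (0.13), Rbm22 (0.14), Tmem94 (0.14) and Bfar (0.14). Among the members Dsg2 came nearest, at rank 147. The catenin Ctnnb1 stood at rank 772, Jup at 847, Epcam at 946 and Dsp at 1218. Ctnnd1 (1282), Dsc2 (1857), Ctnna1 (2166) and Cdh17 (3216) were farther away.

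The other genes of the junctions and of their upkeep were read from 6 lists of 52 genes in all. Of these, 37 passed the filter and 11 were called (29.7%), 8 with the higher level in SI and 3 in COL. That lies near the 28.4% called of all genes tested, 15.5% higher in SI and 12.9% higher in COL. The same shares stand beside the counts given for each list below. Among 17 other adherens junction genes, 13 were tested. The nectins, another family of adhesion receptors at this junction, moved in both directions. Nectin2 was at 78.6 to 146 CPM in SI and 36.9 to 62.9 CPM in COL (log2 fold change 1.18 ± 0.31; edgeR, adjusted p = 0.0156), and Nectin3 at 48.3 to 73.4 and 26.6 to 37.1 CPM (0.95 ± 0.24; edgeR, adjusted p = 0.0117). Nectin4, in contrast, had 1 to 21 counts in SI and 57 to 204 counts in COL libraries (-3.51 ± 0.85; edgeR, adjusted p = 0.00892). Without SI4 its log2 fold change was -5.33, and in the low-share libraries alone, which include SI4, it was -2.69 and not called (adjusted p = 0.0905). Pkp4, a relative of p120-catenin, was at 72.5 to 89.8 CPM in SI and 29.7 to 35.7 CPM in COL (1.26 ± 0.22; edgeR, adjusted p = 0.00145). By library size alone, Nectin2, Nectin3 and Pkp4 kept a positive log2 fold change (0.40, 0.22 and 0.52) and did not pass. Nectin2 was also lost without SI4 or COL1 (adjusted p = 0.0548 and 0.0533), and Nectin3 with no filter (adjusted p = 0.0780). From the high-share libraries alone neither was called (edgeR, adjusted p = 0.0755 for Nectin2 and 0.347 for Nectin3). The log2 fold change of Nectin3 was 0.59 there and 1.26 from the low-share libraries alone.

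In the same list, 3 linkers with a high level did not pass: Afdn, which joins nectins to actin, had a log2 fold change of -0.09, Plekha7, which binds p120-catenin, 0.73, and Lmo7 0.65. COL2 held the highest COL value of all 3 genes. Without COL2, Lmo7 and Plekha7 passed the threshold (log2 fold change 1.34 and 1.02; edgeR, adjusted p = 0.00448 and 0.0178) and Afdn turned to 0.52. N-cadherin (Cdh2) and P-cadherin (Cdh3) reached at most 6 and 33 counts in any library, so E-cadherin was the one classical cadherin of these 3 with a substantial level in either tissue.

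Of 13 other desmosome genes, 7 were tested and 1 was called. Dsg4 had 16 to 65 counts in SI and 0 to 13 in COL libraries (log2 fold change 2.79 ± 0.83; edgeR, adjusted p = 0.0249), a level of at most 2.98 CPM, and the call was lost without SI4, COL1 or COL4 (adjusted p = 0.103, 0.0766 and 0.0613) and by library size alone (2.00, adjusted p = 0.0766). The desmosomal cadherins of stratified epithelia (Dsg1a, Dsg1b, Dsg1c, Dsg3, Dsc1 and Dsc3) had at most 16 counts in any library. The plakophilins, which bind the desmosomal cadherins and desmoplakin, differed in level. Pkp3 stood at 92.1 to 173 CPM in SI and 52.9 to 96.2 CPM in COL (0.74 ± 0.31; edgeR, adjusted p = 0.0932; close to 0, at -0.0045, by library size alone). Pkp2 had 223 to 545 counts per library (log2 fold change -0.25; edgeR, adjusted p = 0.541). Pkp1 had 3, 115, 188 and 113 counts in SI1 to SI4 and 329, 178, 534 and 534 in COL1 to COL4. Its CPM did not overlap between the tissues, with COL the higher, yet the log2 fold change of -1.09 did not pass (edgeR, adjusted p = 0.302). Perp, a membrane protein of desmosomes, had a log2 fold change of 0.37, or -0.40 by library size alone.

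Around EpCAM, 2 of 4 genes tested were higher in SI. Claudin-7 (Cldn7), a tight junction protein that EpCAM binds, was at 857 to 2073 CPM in SI and 389 to 889 CPM in COL (log2 fold change 1.32 ± 0.45; edgeR, adjusted p = 0.0481). This call was lost when donor mouse was blocked (adjusted p = 0.0964), by library size alone (0.55, adjusted p = 0.368) and without any one of SI1, SI2, SI4, COL1, COL2 or COL4 (adjusted p between 0.0528 and 0.127). Spint1, an inhibitor of the protease matriptase that cleaves EpCAM, was at 171 to 193 CPM in SI and 65.0 to 123 CPM in COL (1.05 ± 0.28; edgeR, adjusted p = 0.0164), and lost the call without SI4 or COL4 (adjusted p = 0.0516 and 0.0528) and by library size alone (0.35, adjusted p = 0.308). Its relative Spint2 was lower in SI in each mouse, at 193 to 303 against 299.9 to 461 CPM (-0.56 ± 0.30; edgeR, adjusted p = 0.193; -1.32 and 0.0124 by library size alone). Matriptase (St14) had a log2 fold change of 0.23, or -0.51 by library size alone.

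**Figure D5:**
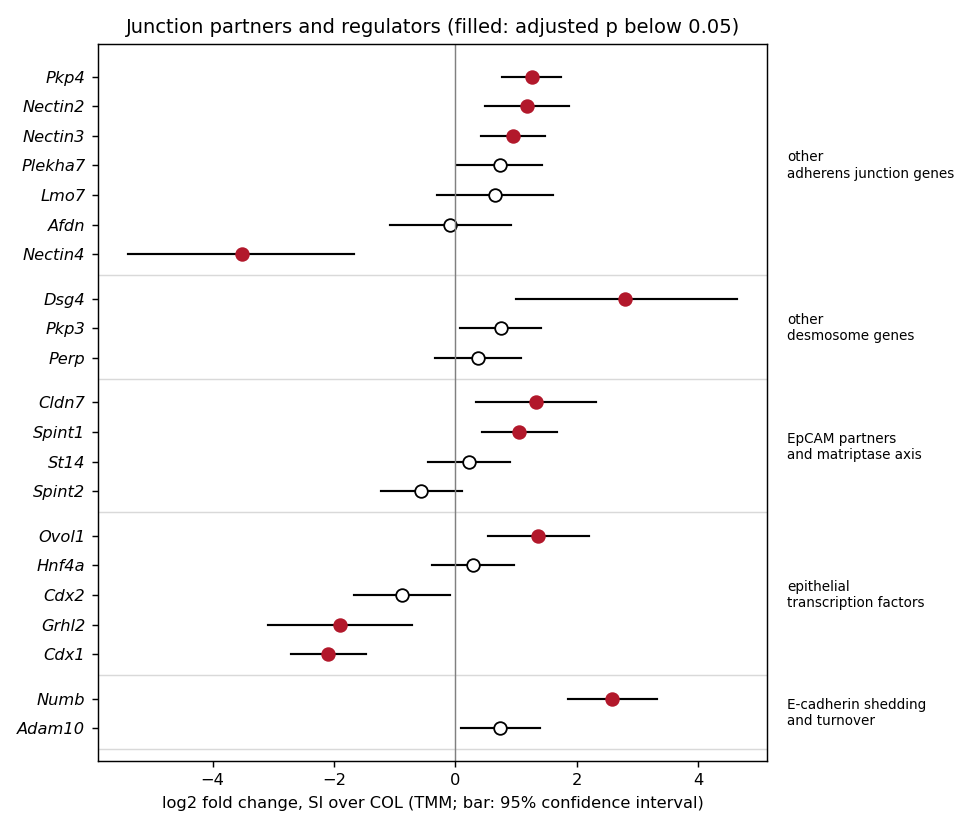
Log2 fold change of SI over COL (TMM scaling, with 95% confidence intervals) for junction partners and regulators that were called or had a mean log2 CPM of at least 5, grouped by list; filled points have an adjusted p below 0.05. Nectin4, Grhl2 and Cdx1 were higher in COL and the other 8 called genes higher in SI; by library size alone the uncalled Pkp3, Perp, St14, Hnf4a and Adam10 turn to negative values.

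Transcripts of the repressors of E-cadherin were scarce. Snai1 and Snai2 had at most 16 and 5 counts in any library, and Twist1 had none. Zeb1 had 2 to 49 and Zeb2 2 to 33 counts per library, and neither was called (edgeR, adjusted p = 0.662 and 0.931). Of 7 tested transcription factors of epithelial or intestinal identity, Ovol1 was higher in SI, at 70.3 to 114 against 18.4 to 57.4 CPM (log2 fold change 1.36 ± 0.38; edgeR, adjusted p = 0.0189). It lost the call without SI1 or COL1 (adjusted p = 0.0530 and 0.0632) and by library size alone (0.56, adjusted p = 0.289), and 23.0% of the 50-base stretches of its transcript recur in other genes. Grhl2, which is known to activate Cdh1 in other epithelia, was higher in COL, with 1.09, 11.2, 8.87 and 4.90 CPM in SI1 to SI4 and 20.7, 31.6, 23.1 and 21.8 CPM in COL1 to COL4. Its log2 fold change was -1.90 ± 0.54 (edgeR, adjusted p = 0.0215; 0.0518 without SI4). Cdx1, a caudal-type homeobox factor of the gut, was at 22.6 to 25.7 CPM in SI and 69.5 to 141 CPM in COL (-2.09 ± 0.28; edgeR, adjusted p = 0.000242). Its relative Cdx2 did not pass (-0.87 ± 0.36; edgeR, adjusted p = 0.0918), but did without COL2 (-1.12, adjusted p = 0.0130) and by library size alone (-1.69, adjusted p = 0.0105). Hnf4a had a log2 fold change of 0.29 (-0.46 by library size alone).

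Among 4 genes of E-cadherin shedding and turnover, Numb, an endocytic adaptor that binds the E-cadherin complex and also restrains Notch, was higher in SI. It stood at 221, 141, 137 and 202 CPM in SI1 to SI4 and at 16.3, 34.6, 35.4 and 30.7 CPM in COL1 to COL4, without overlap. The log2 fold change was 2.58 ± 0.34 (edgeR, adjusted p = 0.000193), and it stayed past the threshold by library size alone at 1.86. Adam10, the protease that sheds the ectodomain of E-cadherin, had a log2 fold change of 0.74 ± 0.29 (edgeR, adjusted p = 0.0830; -0.04 by library size alone). Adam17 and Cbll1, which encodes the ubiquitin ligase Hakai that targets E-cadherin, did not pass either.

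Promoter sequence was at hand for 5 of the members (Epcam, Dsp, Jup, Ctnnb1 and Ctnnd1), as RefSeq windows of GRCm38.p6 from 250 bases before to 50 bases after an annotated start. They are shown for genes that the repressors and factors named above could be read against: the capitals mark the E-box CACCTG, on either strand (CAGGTG), the letters that Snail and Zeb factors bind. The Epcam window (chr17:87635729-87636028, plus strand) holds 2, that of Dsp (chr13:38151044-38151343, plus strand) holds 1, and that of Ctnnd1 (chr2:84650691-84650990, minus strand), one of its 2 annotated windows, holds none.
Epcam: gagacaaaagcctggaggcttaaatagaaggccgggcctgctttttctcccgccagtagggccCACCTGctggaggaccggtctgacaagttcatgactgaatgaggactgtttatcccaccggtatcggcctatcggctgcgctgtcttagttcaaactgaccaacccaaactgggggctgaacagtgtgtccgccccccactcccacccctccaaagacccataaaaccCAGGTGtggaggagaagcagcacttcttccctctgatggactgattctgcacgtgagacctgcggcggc
Dsp: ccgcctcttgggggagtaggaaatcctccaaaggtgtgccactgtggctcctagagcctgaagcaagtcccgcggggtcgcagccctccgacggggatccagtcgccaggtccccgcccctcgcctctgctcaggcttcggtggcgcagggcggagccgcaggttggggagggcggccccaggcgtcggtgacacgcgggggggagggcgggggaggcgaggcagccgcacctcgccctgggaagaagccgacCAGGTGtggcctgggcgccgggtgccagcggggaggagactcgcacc
Ctnnd1: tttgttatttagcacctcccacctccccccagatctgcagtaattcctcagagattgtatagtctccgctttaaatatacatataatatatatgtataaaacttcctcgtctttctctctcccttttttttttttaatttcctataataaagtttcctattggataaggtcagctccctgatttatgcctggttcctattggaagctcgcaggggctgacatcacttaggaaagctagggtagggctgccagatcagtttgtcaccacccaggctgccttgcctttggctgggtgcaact

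The E-box letters occurred in 20.2% of the 32851 windows in the table, and were absent from the windows of Jup and Ctnnb1. TTTATG, searched on both strands as the letters of a caudal-type site, was found once each in the windows of Epcam, Jup and the one of Ctnnd1 shown, and in 11.9% of all windows. AACCNGTT, the letters of a Grainyhead-like site, was in none of the members' windows and in 2.09% of all. These are matches of letters in short windows, and no binding was measured.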

How the data were processed

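Gene expression was measured by RNA-Seq of 8 crypt libraries. The authors trimmed the reads with Trimmomatic (version 0.36), aligned them and counted reads per gene with STAR (version 2.5.2b), and deposited raw counts, not normalized, as 1 table per tissue. The versions are from the submitters' processing notes, which list the builds mm9 and mm10; the study names mm10. The annotation release and the use of strand are not given in the sources used here. Symbols, coordinates and exon lengths came from GENCODE vM21 (GRCm38), which held 45143 of 45706 identifiers and all 123 genes of the lists. The junction genes and the lists were chosen with earlier results of these data known.

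Counts were scaled by TMM and tested with edgeR 4.0.16 (R 4.3.3), keeping genes by filterByExpr with tissue as group (a minimum count of 10, scaled to library size, in 4 libraries, and 15 over all libraries). CPM use the scaled total of the genes kept, and log2 CPM a prior count of 2. DESeq2 1.42.0, limma 3.58.1 (voom), scaling by library size, other filters, the mitochondrial share as a covariate, a donor block and leaving out each library were alternatives. Fits of the low-share or high-share libraries alone were added after the data had been seen. Genes named outside the junction set are list genes that passed the threshold or had a mean log2 CPM of at least 5, the repressors, the desmosomal cadherins and plakophilins, and the 5 nearest to Cdh1. Cdh2, Cdh3, Adam17, Cbll1, Gm28635 and Ulk4 were named after their values were seen.

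SI and COL libraries were paired by donor mouse, as the labels number it. After the tissue mean was taken off each of 14491 genes, the correlation across genes between the libraries of a mouse was -0.24, 0.39, -0.08 and 0.33 for mice 1 to 4.

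Members had 501 to 46657 counts per library, so the spread between libraries, not counting error, limited precision. Its source was not tested. The edgeR fits with and without the donor block, limma-voom and DESeq2 were tested on simulated data, where edgeR missed most of the changes made and DESeq2 gave the most calls, false ones included; a gene not called is not shown to be equal, and calls by DESeq2 alone are less secure.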

Additional observations from a re-analysis of the deposited data

Results flagged for a closer look

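In 74 groups of 4 libraries (31 genes and 6 ratios in each tissue), 5 had 1 library that stood apart by Dixon's criterion at 95%, which chance alone gives in about 1 of 20 groups. Dsp was at 390.2 CPM in COL2, where the other COL libraries lay between 196 and 217 CPM, and Lmo7 at 214 CPM in COL2, against 50.4 to 69.4 CPM. COL2 was also the library with the fewest counts and the highest mitochondrial share (50.8%). Nectin4 was at 0.961 CPM in SI4, against 0.0507 to 0.121 CPM in the other SI libraries, and Dsg4 at 2.98 CPM in SI4, against 0.967 to 1.22 CPM. St14 was at 371 CPM in SI1, against 218 to 234 CPM.

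Of 31 genes compared by the sex of the mouse, 3 had SI above COL in both females and below COL in both males. The mean log2 difference was 0.28 in females and -0.28 in males for Cdh1, 0.77 and -0.21 for Dsg2, and 0.56 and -0.15 for St14. In mice 1 to 4 it was 0.53, -0.07, -0.48 and 0.03 for Cdh1 and 1.21, -0.20, -0.23 and 0.33 for Dsg2. The SI and COL libraries of mice 1 and 3 differed in the level of mitochondrial share, and those of mice 2 and 4 did not. How many of all genes show such a pattern was not counted. These differences between the sexes were not tested. With 2 mice of each sex, and with the SI libraries of the females at a low and those of the males at a high mitochondrial share, sex and share cannot be told apart in SI.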

How the results depend on the processing

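The count of junction genes called, 3 in the fit reported, all higher in SI, was 1 by library size alone (40.7% of all genes called), 5 with DESeq2 (35.3%), 1 with no filter (13.7%), 5 with the mitochondrial share as a covariate (37.7%), 6 from the low-share (37.0%) and 1 from the high-share libraries alone (14.8%), and 2 to 4 with each library left out. Over all genes, library size alone gave 1115 higher in SI and 4788 higher in COL, and the high-share libraries alone gave 2264 in all, 1381 higher in SI and 883 higher in COL. Leaving out each library gave 3167 to 4480. With the donor mouse as a replicate block, edgeR called 4072 genes and 2 members and limma-voom 4707 genes and 4 members; Ctnna1 and Cldn7 lost edgeR's call, and the block ended no other call on a named gene.

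Values that turned sign were those of genes not called. Cdh1 was at 0.0115 with limma-voom, 0.0012 and 0.0013 with the donor block in edgeR and limma-voom, and -0.16 to 0.13 with each library left out. Afdn was at 0.0063 with limma-voom, 0.0640 and 0.0782 with the block, 0.34 with the mitochondrial covariate, 0.28 in the low-share libraries and -0.37 to 0.52 with each library left out. By library size alone Epcam was at -0.26, Ctnnb1 -0.0753, Jup -0.21, Dsg2 -0.48, Dsp -0.38, Pkp3 -0.0045, Perp -0.40, St14 -0.51, Hnf4a -0.46 and Adam10 -0.0366. In the high-share libraries alone Epcam was at -0.0273 and St14 at -0.0435. The cause was not tested, except that library size scaling lowers every SI over COL value by construction, as the factors differ between the tissues.

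With 4 libraries per tissue the 95% intervals of the members spanned about 1 to 2 log2 units, so members that did not pass are not shown to be equal between the tissues. Whether the counts of Ctnnd1 include its shared exon bases is not known, and cell makeup and mitochondrial share limit what the differences describe.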
